A study of Mus musculus with 31 samples.

Results

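Levels of 9 genes of the mesenchymal programme were followed through reprogramming of mouse fibroblasts: the transcription factors Snai1, Snai2, Zeb1, Zeb2, Twist1, Twist2 and Prrx1 and the markers Cdh2 and Vim. They were chosen by name from a list of genes of the epithelial to mesenchymal transition (EMT), with earlier results of these data known. They are 9 of the 29267 genes in the deposited tables. RNA-seq was made from 31 libraries of cells of the strain 129/OG2. The study asked how TET1 bears on reprogramming with vitamin C and small molecules. Reprogramming cells carried OKSM (Pou5f1, Klf4, Sox2 and Myc), had passage number 0, and had received a Tet1CD virus or, as the presumed control, a Flag virus. They were kept with vitamin C (Vc), with DKG or with DMSO, taken here as the vehicle, and were collected at day 3 or day 8, which gives 12 groups of 2 libraries. Embryonic stem cells (ESC) of passages 17 and 19 and untreated fibroblasts (MEF) of passage 2 had 2 libraries each. MEF of passage 2 kept 3 days with DMSO, Vc or DKG had 1 library each and are given as values only. The labels state no dose and do not spell out Tet1CD or DKG, and the title of the last single library names 2DG where its treatment field says DKG. The 2 libraries of a MEF or reprogramming group are numbered 0824 and 0826, without an explanation in the labels. No label ties them to separate cultures, and p-values therefore measure only a spread between libraries that may be technical.

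EMT is the change by which epithelial cells lose their junctions and become motile, and the conversion of fibroblasts to pluripotent cells begins with the opposite change. The Snai and Zeb zinc-finger proteins bind E boxes and repress epithelial genes such as Cdh1, the Twist proteins are basic helix-loop-helix factors, and Prrx1 is a homeobox factor of limb and craniofacial mesenchyme. Cdh2 encodes N-cadherin, the adhesion protein that takes the place of E-cadherin in mesenchymal cells, and Vim encodes their intermediate filament protein vimentin.

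The promoters of 4 members are shown because these genes stand for the different courses described below: Snai1 and Twist2 lay below MEF at both days, Twist1, the relative of Twist2, overlapped its MEF level, and Vim was the most abundant member. Each run spans 250 bases before and 50 bases after the start of the RefSeq transcript in GRCm38.p6, on the plus strand. The windows are chr2:167537945-167538244 for Snai1, chr12:33957421-33957720 for Twist1, chr1:91801211-91801510 for Twist2 and chr2:13574061-13574360 for Vim. Capitals mark the E box CAGGTG, the core of Snai and Zeb sites, and the CCAAT box, each on either strand (CACCTG and ATTGG on the other).
Snai1: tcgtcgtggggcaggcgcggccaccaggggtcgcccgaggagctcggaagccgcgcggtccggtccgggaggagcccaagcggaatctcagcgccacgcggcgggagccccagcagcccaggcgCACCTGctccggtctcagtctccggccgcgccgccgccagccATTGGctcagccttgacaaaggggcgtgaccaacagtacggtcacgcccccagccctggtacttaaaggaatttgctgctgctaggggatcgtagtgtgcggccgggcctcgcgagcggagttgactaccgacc
Twist1: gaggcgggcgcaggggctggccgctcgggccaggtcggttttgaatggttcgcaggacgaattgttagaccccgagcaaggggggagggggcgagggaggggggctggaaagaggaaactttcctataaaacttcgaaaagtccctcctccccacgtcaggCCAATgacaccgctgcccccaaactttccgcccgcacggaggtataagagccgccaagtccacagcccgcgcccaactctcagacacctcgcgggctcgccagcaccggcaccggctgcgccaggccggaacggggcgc
Twist2: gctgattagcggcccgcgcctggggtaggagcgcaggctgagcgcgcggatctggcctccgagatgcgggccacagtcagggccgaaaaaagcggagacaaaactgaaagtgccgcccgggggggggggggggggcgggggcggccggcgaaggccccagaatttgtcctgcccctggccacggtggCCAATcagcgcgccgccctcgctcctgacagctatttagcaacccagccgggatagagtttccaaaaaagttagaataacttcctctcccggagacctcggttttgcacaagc
Vim: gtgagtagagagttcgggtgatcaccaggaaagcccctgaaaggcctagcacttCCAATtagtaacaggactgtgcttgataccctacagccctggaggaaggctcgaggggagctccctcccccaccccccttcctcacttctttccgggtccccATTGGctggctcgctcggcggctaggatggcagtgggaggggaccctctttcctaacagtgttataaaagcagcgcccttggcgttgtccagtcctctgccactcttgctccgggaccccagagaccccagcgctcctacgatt
RefSeq promoter entries matched 6 of the 9 members (Snai1, Zeb2, Twist1, Twist2, Prrx1 and Vim). Among these 6, Snai1 was the only one with CAGGTG, 126 bases before its start. Of 32851 mouse promoters of 300 bases, 20.2% held CAGGTG and 37.4% held the CCAAT box. This box lay 84 bases before the start of Snai1, 89 before that of Twist1 and 63 before that of Twist2. Vim had 2 of these boxes, the first 196 bases before its start and the other nearer to it. These matches describe the letters only.

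In mm10, Snai1 (ENSMUSG00000042821) lies on chromosome 2 from 167538195 to 167542814 and Snai2 (ENSMUSG00000022676) on chromosome 16 from 14705852 to 14709385. Zeb1 (ENSMUSG00000024238) spans 5591860 to 5775467 of chromosome 18, and Zeb2 (ENSMUSG00000026872) spans 44983632 to 45117395 of chromosome 2. Twist1 (ENSMUSG00000035799) lies on chromosome 12 from 33957671 to 33959829 and Twist2 (ENSMUSG00000007805) on chromosome 1 from 91801461 to 91848028. Prrx1 (ENSMUSG00000026586) spans 163245119 to 163313710 of chromosome 1. Cdh2 (ENSMUSG00000024304) lies on chromosome 18 from 16588877 to 16809246, and Vim (ENSMUSG00000026728) on chromosome 2 from 13573927 to 13582826. All 9 are annotated as protein coding, and no 50-base stretch of their transcripts was shared between members. The antisense gene Gm29100 shares 45.7% of the 50-base stretches of Twist2, and since no counting strand is stated, reads of such overlaps cannot be told apart. On the opposite strand, Zeb1 overlaps the processed transcript Gm10125 over 198 exon bases, and Zeb2 the antisense gene Zeb2os over 653. Of their 50-base stretches, Zeb1 shared 1.76% and Zeb2 2.26% with any other genes, far less than Twist2.

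Libraries held between 3953297 and 6818060 counts, and 3 counts, the limit that a count of 0 allows, are at most 0.759 CPM (a gene's share of the TMM-scaled library total, given as CPM). Tet1 fitted the labels, with a median of 560 CPM in Tet1CD cells and 8.65 in Flag cells at day 3, and of 313 and 6.74 at day 8, and Pou5f1 was at 723 to 2319 CPM in all reprogramming libraries against 2.36 and 4.47 in MEF. Some libraries stood apart from their labels. The ESC library 0822 had 12191 CPM summed over 12 fibroblast markers (such as Col1a1 and Thy1), against 105 in ESC 0819 and 38900 and 40416 in MEF. MEF 0824 had 2598 CPM over 11 macrophage markers and MEF 0826 had 546. Among reprogramming libraries that sum was 7.01 to 72.1 CPM, except for 1128 in the day 8 Tet1CD library with Vc numbered 0824. Fibroblast markers summed to 2890 to 7555 CPM at day 3 and 2834 to 9203 CPM at day 8, with all 12 above 0 in every library. In such bulk samples, fewer cells of a type and less RNA per cell cannot be told apart.

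The members covered a wide range of levels in MEF, and their order changed with time. Levels of different genes are compared here only in TPM, which accounts for transcript length. In MEF, Vim had a mean of 5883 TPM, Prrx1 372 and Twist2 137. Cdh2 followed with 93.9 TPM and Snai1 with 91.5, and their ranges over the 2 libraries, 89.0 to 98.9 and 84.7 to 98.4, overlapped. Twist1 (70.9), Snai2 (62.0), Zeb2 (57.5) and Zeb1 (48.5) were the lowest, with ranges that did not overlap, such as 65.3 to 76.5 for Twist1 and 61.4 to 62.7 for Snai2. At day 3 Vim and Prrx1 still led with means of 5266 and 321 TPM over 12 libraries, but Twist1 stood next at 91.6, while Snai1 (23.7) and Snai2 (10.2) were the lowest. The 12 libraries of Vim, Prrx1 and Twist1 did not overlap the next gene in that order, and those of the other members did. At day 8 the mean of Snai1 (44.8 TPM) was above those of Zeb2 (28.8), Twist2 (22.5) and Zeb1 (22.4), although its libraries spread from 16.5 to 80.8 TPM and overlapped all of these. Cdh2 (18.1) and Snai2 (3.998) closed the order, and their libraries did not overlap.

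**Figure D1:**
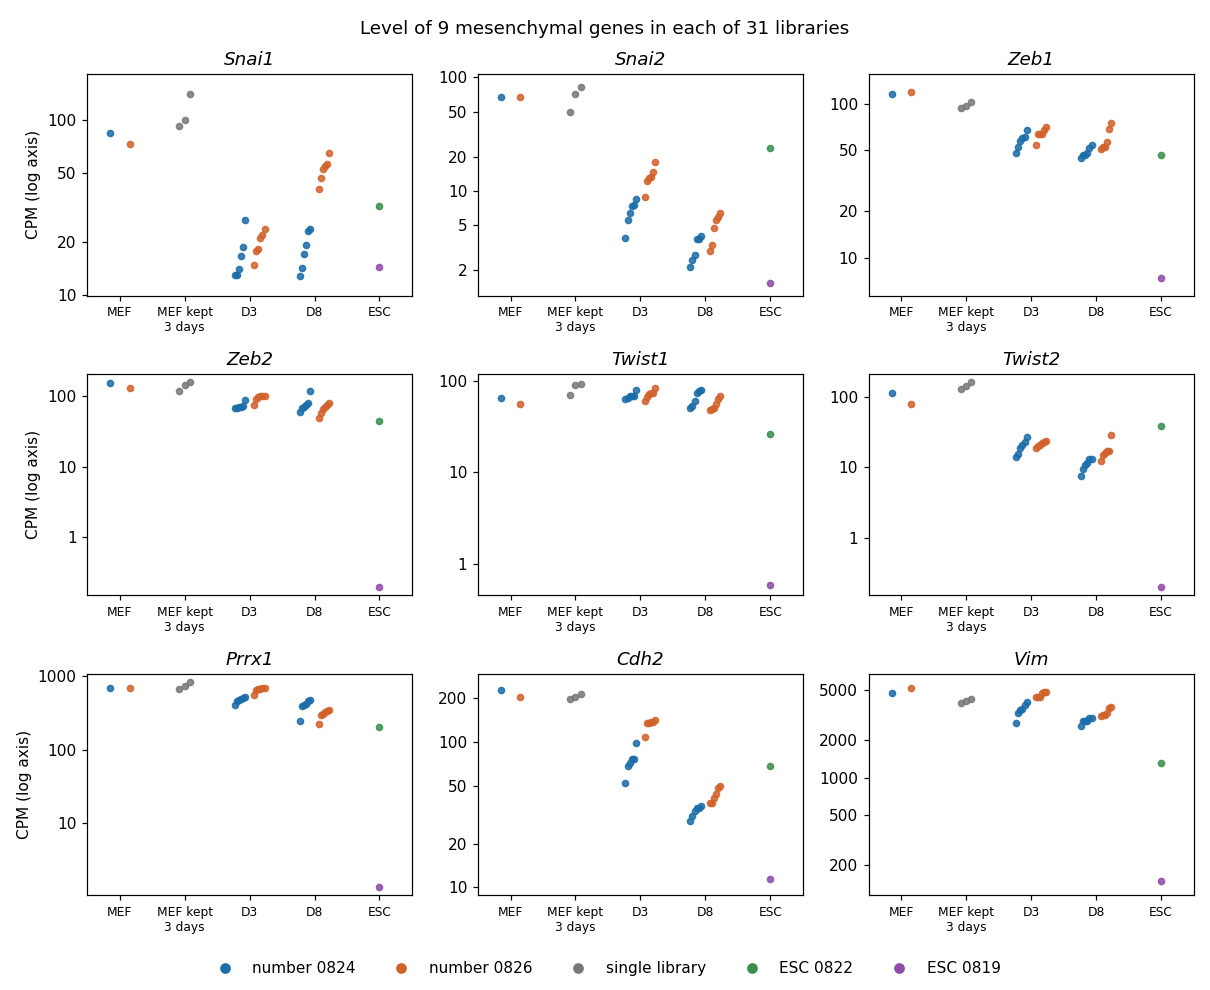
Level of each of the 9 genes in all 31 libraries, in CPM on a log axis. Points are libraries, coloured by library number; columns are MEF, MEF kept 3 days, day 3 (12 libraries), day 8 (12 libraries) and ESC. Snai2 stood at 2.14 to 6.33 CPM at day 8 against 66.6 and 67.9 in MEF, while Twist1 overlapped its MEF values, and ESC 0819 lay far under ESC 0822 for most genes.

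At day 3 of reprogramming both Snai genes had fallen. Snai1, the factor often seen first in EMT, had 12.99 and 18.3 CPM in day 3 Flag DMSO cells (libraries 0824 and 0826), against 84.2 and 72.7 CPM in MEF. The groups did not overlap, and the log2 fold change was -2.33 ± 0.71 (SE; adjusted p = 0.0207, edgeR quasi-likelihood test). Snai2, or Slug, a neural crest and fibroblast repressor, had 5.59 and 12.2 CPM in day 3 cells, against 67.9 and 66.6 CPM in MEF, a change of -2.92 ± 0.78 (adjusted p = 0.00997). These were 2 of the 9 members called, beside 28.7% of all 14914 genes tested, and 13.9% of all genes were called lower. All 8 members other than Twist1 lay below both MEF libraries in both day 3 libraries, as did 34.9% of all genes.

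The other members did not pass in that fit, which includes ESC and so the gap between the 2 ESC libraries. Zeb1, a repressor of Cdh1 and of miR-200 genes, had 52.1 and 63.8 CPM in day 3 Flag DMSO cells, against 116 and 119 CPM in MEF. Its change of -1.02 ± 0.44 had an adjusted p of 0.0894, and 0.000625 with ESC left out of the fit. Twist2, which keeps mesenchymal precursors from maturing, had 15.6 and 23.97 CPM in day 3 cells, against 113 and 78.8 CPM in MEF. Its change of -2.28 ± 0.86 had an adjusted p of 0.0548, and 0.000272 with ESC left out. Zeb2, the relative of Zeb1 that macrophages also express, had 67.6 and 102 CPM in day 3 cells, against 154 and 130 CPM in MEF. Its change of -0.74 ± 0.74 had an adjusted p of 0.484, and 0.0269 with ESC left out. The MEF library with more Zeb2 was the one with 2598 CPM of macrophage markers. The part of those cells in the Zeb2 difference was not tested. With ESC left out, 5 of the 9 members passed (Snai1, Snai2, Zeb1, Zeb2 and Twist2), beside 37.1% of all genes.

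Twist1, Prrx1, Vim and Cdh2 passed in neither fit. Twist1, the other Twist factor, had 63.8 and 71.7 CPM in day 3 Flag DMSO cells, against 65.3 and 55.9 CPM in MEF, and its groups overlapped (0.16 ± 0.62, adjusted p = 0.884). Prrx1 had 492 and 669 CPM in day 3 cells, against 702 and 685 CPM in MEF (-0.26 ± 0.88, adjusted p = 0.867). Vim had 3253 and 4351 CPM in day 3 cells, against 4751 and 5158 CPM in MEF (-0.38 ± 0.53, adjusted p = 0.633). Cdh2 had 68.6 and 136 CPM in day 3 cells, against 228 and 204 CPM in MEF, so its 2 day 3 libraries differed from each other more than the MEF libraries did (-1.08 ± 0.57, adjusted p = 0.166). The median log2 change was -1.02 over the members and 0.04 over all genes. The call of Snai1 was lost without any 1 of the 4 libraries compared (adjusted p between 0.051 and 0.162), and that of Snai2 without the day 3 library 0824 (0.128).

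The other 10 day 3 libraries had like levels. Over all 12, the lowest, median and highest were 12.99, 18.0 and 26.6 CPM for Snai1, and 3.82, 8.69 and 17.9 for Snai2. They were 48.2, 62.0 and 70.4 CPM for Zeb1, 67.6, 82.5 and 102 for Zeb2, and 13.96, 20.9 and 26.6 for Twist2. For these 5 genes and for Cdh2 (52.4, 103 and 143 CPM) all 12 libraries lay below both MEF libraries, as did 25.5% of all genes tested. Twist1 (60.7, 69.0 and 83.5 CPM), Prrx1 (404, 537 and 696) and Vim (2743, 4185 and 4792) overlapped MEF. The single libraries of MEF kept 3 days with DMSO, Vc and DKG had 92.6, 141 and 101 CPM of Snai1 and 82.1, 49.7 and 71.9 of Snai2. Twist2 had 129, 165 and 146 CPM there. For these genes and for Zeb1, Zeb2 and Cdh2 all 12 day 3 libraries lay below all of these single libraries. The share of all genes in that position was not computed, so this is not a result about the members.

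**Figure D2:**
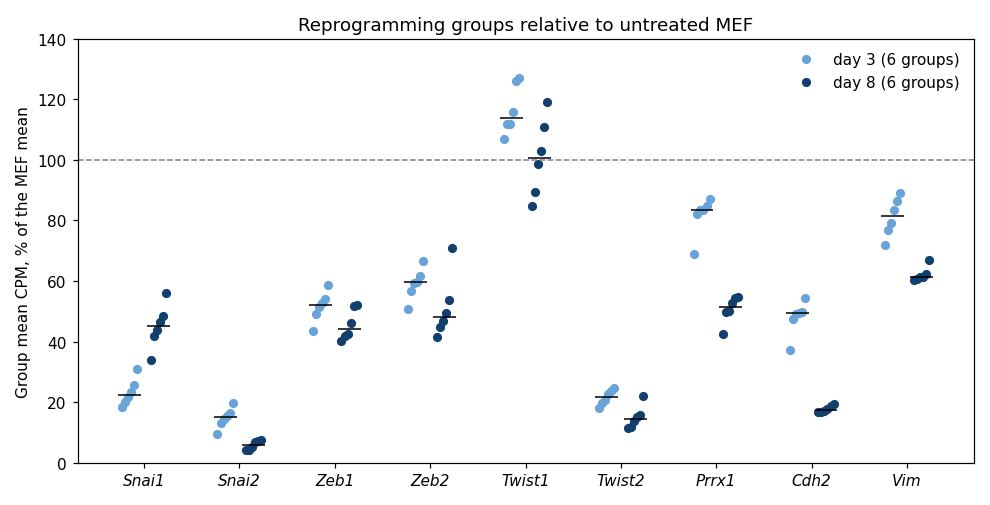
Group mean CPM as a percentage of the MEF mean for the 6 day 3 groups and the 6 day 8 groups, with black bars for the medians and a dashed line at 100%. Snai2 had medians of 14.98% at day 3 and 6.003% at day 8, Snai1 of 22.5% and 45.1%, and Twist1 of 114% and 101%.

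Between day 3 and day 8 the members took different courses: Cdh2 and Snai2 fell further, and Snai1 was higher again. Cdh2 had a lowest, median and highest level of 28.8, 37.1 and 49.6 CPM in the 12 day 8 libraries, against 52.4, 103 and 143 CPM in the 12 day 3 libraries. It was the only member whose groups did not overlap, a position shared by 0.469% of all genes tested, and its log2 change was -1.43 ± 0.24 (adjusted p = 0.000333, edgeR quasi-likelihood test). Snai2 had 2.14, 3.76 and 6.33 CPM at day 8, against 3.82, 8.69 and 17.9 CPM at day 3. The change was -1.34 ± 0.33 (adjusted p = 0.00704), and the lowest day 3 libraries overlapped the highest at day 8. Snai1 had 12.8, 32.1 and 64.8 CPM at day 8, against 12.99, 18.0 and 26.6 CPM at day 3, a change of 0.95 ± 0.29 (adjusted p = 0.0215). So 3 of the 9 members were called, beside 25.1% of all genes, of which 14.4% higher and 10.7% lower.

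The rise of Snai1 lay in 1 of the 2 library numbers. Its 6 day 8 libraries numbered 0826 had 40.3, 53.4 and 64.8 CPM (lowest, median and highest), all above every other reprogramming library, while the 6 numbered 0824 had 12.8, 18.2 and 23.8 CPM. At day 3 the corresponding medians were 19.6 CPM for 0826 and 15.4 for 0824. Within 0826 the change between the days was 1.44 ± 0.09 (adjusted p = 8.12e-08, higher in 6 of 6 pairs of the same virus and medium), and within 0824 it was 0.14 ± 0.12 (adjusted p = 0.422, higher in 4 of 6). In these fits within 1 number, the 6 combinations of virus and medium stood in as replicates. Their p-values therefore do not measure how far a day change repeats between numbers. Of all genes, 56.7% were called within 0826 and 25.6% within 0824. The difference between the numbers, 1.28 ± 0.17, itself passed (adjusted p = 1.08e-05), as it did for 45.6% of all genes. In that test too the 6 combinations stood in as replicates. Its p-values therefore do not measure how far such a gap would repeat in further libraries of either number. Without any 1 of the 6 day 8 libraries numbered 0826, Snai1 lost its call. Cell type markers also differed with the number at day 8. The fibroblast sum was 6156 to 9203 CPM in the libraries numbered 0826 and 2834 to 4435 CPM in those numbered 0824, without overlap, and at day 3 it was 5637 to 7555 CPM in 0826 and 2890 to 5603 CPM in 0824. The sum over 11 keratinocyte markers at day 8 was 79.4 to 160 CPM in 0826 and 113 to 418 CPM in 0824, lower in 6 of 6 pairs. The sum over 10 pluripotent markers at day 8 was 32.7 to 130 CPM in 0826 and 41.1 to 303 CPM in 0824, also lower in 6 of 6. At day 8 the muscle sum was higher in 0826 in 6 of 6 pairs, the macrophage sum in 2, and the endothelial and neural sums in 1 each. The part of these markers in the gap between the numbers was not tested.

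In the same test, with the same limit, the difference also passed for 5 other members. Prrx1 had a median of 318 CPM in the day 8 libraries numbered 0826 and 410 in those numbered 0824, against 674 and 485 CPM at day 3. Its change was -1.09 ± 0.09 within 0826 and -0.27 ± 0.10 within 0824 (difference -0.83 ± 0.16, adjusted p = 0.000462), and it was lower at day 8 in 6 of 6 pairs of either number. Zeb2 fell within 0826 (-0.50 ± 0.10, adjusted p = 0.000945) and had a change of 0.11 ± 0.08 within 0824 (adjusted p = 0.341), where the library with 1128 CPM of macrophage markers had the highest Zeb2 of all day 8 libraries, 120 CPM. The difference was -0.63 ± 0.12 (adjusted p = 0.000361). Cdh2 fell in both, with changes of -1.60 within 0826 and -1.12 within 0824 (difference -0.50 ± 0.12, adjusted p = 0.00201). Twist2 changed by -0.27 ± 0.15 within 0826 and fell by 0.83 within 0824 (difference 0.54 ± 0.19, adjusted p = 0.0269). Vim fell in both, with changes of -0.44 within 0826 and -0.26 within 0824 (difference -0.19 ± 0.08, adjusted p = 0.0464). For Snai2, Zeb1 and Twist1 the difference did not pass (adjusted p between 0.1 and 0.312), and Snai2 fell within both numbers, with changes of -1.45 in 0826 and -1.03 in 0824.

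**Figure D3:**
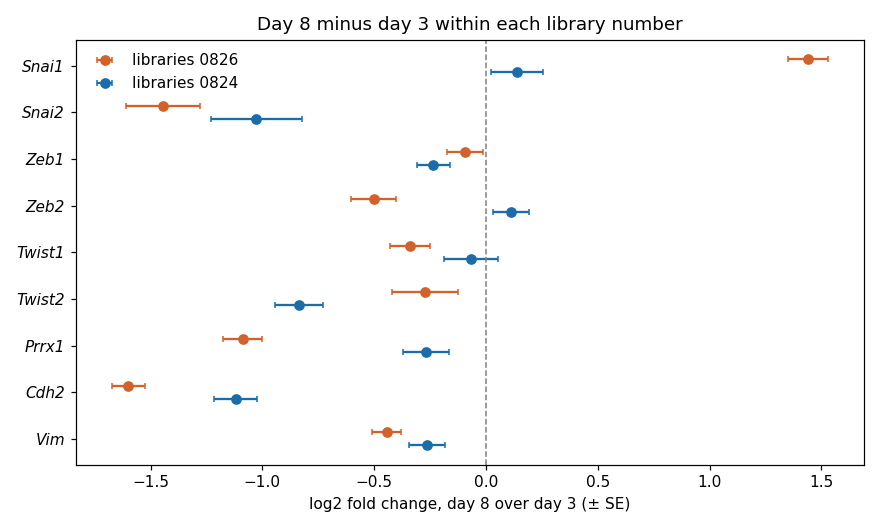
Log2 fold change of day 8 over day 3 for each gene, ± SE, computed separately within the libraries numbered 0826 and 0824 (6 libraries a day in each). Snai1 stood at 1.44 within 0826 and 0.14 within 0824, while Cdh2 and Snai2 lay below 0 in both.

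A further fit had the library number as a block within each day, which takes the gap between the numbers out of the spread. In it all 9 members passed between day 8 and day 3, beside 55.5% of all genes. The number did not pair libraries across days, so a change between the days should be held against that gap. The standard errors of this fit leave it out and are too small for a day change. There Snai1 was higher (0.77 ± 0.087), and the changes of the others ran from -0.18 ± 0.051 for Zeb1 (adjusted p = 0.00692) and -0.21 ± 0.069 for Twist1 (adjusted p = 0.0135) to -0.68 ± 0.082 for Prrx1 and -1.37 ± 0.059 for Cdh2. In that fit Snai2 and Cdh2 were called lower in 6 of 6 combinations of virus and medium taken singly, Prrx1 in 5 and Vim in 4. Snai1 was called higher in 6, although within 0824 it was lower at day 8 in 2 of 6 pairs. These calls also leave out the gap between the numbers. Of all genes, 23.8%, 29.4% and 20.2% were called in Flag cells with DMSO, Vc and DKG, and 15.4%, 19.3% and 15.2% in Tet1CD cells with DMSO, Vc and DKG. Twist1 and Zeb1 were called in none of the 6, with changes of -0.49 to 0.05 for Twist1 and -0.29 to -0.03 for Zeb1. Without the block no member was called in any single combination, where at most 2 of the 9 had an unadjusted p under 0.05, and DESeq2 called none. Pooled over all 20 such comparisons of single groups, 0.202% of the gene tests were called.

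Set against MEF, the day 8 cells differed in 4 members. Snai2 had 2.46 and 3.35 CPM in day 8 Flag DMSO cells (libraries 0824 and 0826), against 67.9 and 66.6 CPM in MEF (-4.54 ± 0.87, adjusted p = 0.000973). Cdh2 had 28.8 and 43.8 CPM in day 8 cells, against 228 and 204 CPM in MEF (-2.58 ± 0.60, adjusted p = 0.00404). Twist2 had 10.7 and 16.0 CPM in day 8 cells, against 113 and 78.8 CPM in MEF (-2.85 ± 0.89, adjusted p = 0.0211). Zeb1 had 44.2 and 50.5 CPM in day 8 cells, against 116 and 119 CPM in MEF (-1.31 ± 0.44, adjusted p = 0.0322). In each of these 4 both day 8 libraries lay well under both MEF libraries, and 30.8% of all genes were called. Snai1 had 14.2 and 54.6 CPM in day 8 cells, which straddled a wide gap, against 84.2 and 72.7 CPM in MEF (-1.21 ± 0.68, adjusted p = 0.192). Prrx1 (473 and 222 CPM at day 8) and Zeb2 (68.8 and 49.7) passed only with ESC left out of the fit (adjusted p = 0.0243 and 0.00107, beside 38.7% of all genes). Over all 12 day 8 libraries, all members but Twist1 lay below both MEF libraries, as did 21.6% of all genes. Twist1 had 48.1, 58.4 and 80.8 CPM (lowest, median and highest), on either side of its MEF values. With 1 of the 4 libraries left out at a time, 1 to 3 members were called: Snai2 in all 4 settings, Cdh2 in 3, Twist2 and Snai1 in 1 each and Zeb1 in none. The comparisons of day 3 and of day 8 with MEF share the MEF libraries.

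Vc, which keeps TET and other dioxygenases active as a cofactor, and DKG gave no called member when averaged over the viruses. At day 3, the changes with Vc over DMSO, averaged over the viruses, ran from -0.16 ± 0.55 for Snai2 to 0.19 ± 0.50 for Snai1, and at day 8 from -0.16 ± 0.62 for Prrx1 to 0.31 ± 0.52 for Zeb2. With DKG over DMSO they ran from -0.13 ± 0.50 for Snai1 to 0.33 ± 0.54 for Snai2 at day 3, and from -0.28 ± 0.48 for Snai1 to 0.18 ± 0.41 for Cdh2 at day 8. No member had an unadjusted p under 0.05 in these 4 comparisons, DESeq2 called none, and edgeR called 0.121% of all genes for Vc at day 3, 0.201% at day 8 and 0.0% for DKG on both days. With standard errors of 0.31 to 0.62 on the log2 scale, these values do not show that the compounds left the members unchanged.

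In the fit with the number within day, whose standard errors for these members lay between 0.066 and 0.2, again no member was called for Vc averaged over the viruses (3.01% of genes at day 3, 8.81% at day 8) or DKG (0.0% on both days). Its unadjusted p was under 0.05 for Zeb2 with Vc at day 8 and for Snai2 with DKG at day 3. Zeb2 had 60.6, 66.8, 81.3 and 120 CPM in day 8 cells with Vc, against 49.7, 68.8, 69.3 and 71.1 CPM in day 8 cells with DMSO (0.32 ± 0.11, adjusted p = 0.0701). The 120 CPM came from the library rich in macrophage markers, and without it the change was 0.20 ± 0.11 (adjusted p = 0.372). In Tet1CD cells alone at day 8, Zeb2 was the 1 member called for Vc over DMSO (0.52 ± 0.15, adjusted p = 0.0363, beside 6.6% of all genes). Without that library this change was 0.29 ± 0.17 and lost its call (adjusted p = 0.503, beside 1.81% of all genes). Snai2 had 7.47, 8.56, 13.3 and 17.9 CPM in day 3 cells with DKG, against 5.59, 6.43, 12.2 and 13.1 CPM in day 3 cells with DMSO, higher in 4 of 4 pairs (0.35 ± 0.15, adjusted p = 1).

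Tet1CD cells had somewhat more of several members than Flag cells in the fit with the number within day. Without a block no member was called at day 3 (0.697% of all genes) or day 8 (1.76%), none had an unadjusted p under 0.05, and DESeq2 called none. With it, 3 of the 9 members were called at day 3, all higher, beside 16.3% of all genes. Snai1 had a lowest, median and highest level of 16.8, 20.4 and 26.6 CPM in Tet1CD cells, against 12.99, 14.4 and 20.99 CPM in Flag cells. It was higher in 6 of 6 pairs of the same number and medium, by 0.43 ± 0.13 (adjusted p = 0.03), though the ranges overlapped. Vim had 3508, 4387 and 4792 CPM in Tet1CD cells, against 2743, 3900 and 4400 CPM in Flag cells (0.20 ± 0.054, adjusted p = 0.0171, higher in 6 of 6). Cdh2 had 76.1, 117 and 137 CPM in Tet1CD cells, against 52.4, 90.1 and 143 CPM in Flag cells (0.23 ± 0.077, adjusted p = 0.044, higher in 5 of 6). Both also overlapped between the viruses. Some marker sums moved with the virus at day 3. The fibroblast, macrophage, keratinocyte and muscle sums were higher with Tet1CD in 6 of 6 pairs. The endothelial and neural sums were higher in 5 of 6 and the pluripotent sum in 2 of 6. The fibroblast sum was 5182 to 7555 CPM in Tet1CD cells and 2890 to 6667 CPM in Flag cells, the macrophage sum 16.1 to 72.1 CPM in Tet1CD cells and 9.37 to 13.97 CPM in Flag cells, and the keratinocyte sum 37.7 to 75.4 CPM in Tet1CD cells and 19.9 to 45.1 CPM in Flag cells. The part of these markers in the members' changes was not tested.

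At day 8, 5 of the 9 members were called higher with Tet1CD in that fit, beside 23.0% of all genes. The others were not called: Cdh2 was higher in 4 of 6 pairs, Prrx1 in 3, Vim in 2 and Twist1 in 1. Snai2 had a lowest, median and highest level of 3.74, 4.76 and 6.33 CPM in Tet1CD cells, against 2.14, 2.85 and 4.68 CPM in Flag cells. It was higher in 6 of 6 pairs, by 0.68 ± 0.16 (adjusted p = 0.00486). Twist2 had 11.6, 15.2 and 29.2 CPM in Tet1CD cells, against 7.46, 11.6 and 16.0 CPM in Flag cells (0.50 ± 0.14, adjusted p = 0.0152, higher in 6 of 6). Zeb2 had 69.3, 76.6 and 120 CPM in Tet1CD cells, against 49.7, 63.7 and 76.1 CPM in Flag cells (0.37 ± 0.086, adjusted p = 0.00428, higher in 6 of 6). The groups overlapped for each of these 3. Zeb1 (0.26 ± 0.073, adjusted p = 0.0132) and Snai1 (0.34 ± 0.11, adjusted p = 0.0397) were each higher in 5 of 6 pairs. Without the library rich in macrophage markers Zeb2 had 0.29 ± 0.086 (adjusted p = 0.0177), Snai2 0.70 (adjusted p = 0.00728) and Twist2 0.58 (adjusted p = 0.00564), while Snai1 lost its call (0.32, adjusted p = 0.0604), beside 22.8% of all genes. The highest day 8 level was 6.33 CPM for Snai2, against at least 66.6 CPM in MEF, but 64.8 CPM for Snai1, against at least 72.7 CPM in MEF, and 120 CPM for Zeb2, against at least 130 CPM in MEF. At day 8 the keratinocyte sum was lower with Tet1CD in 6 of 6 pairs (79.4 to 269 CPM in Tet1CD cells and 109 to 418 CPM in Flag cells) and the sum of 10 pluripotent markers was higher in 6 of 6 (44.4 to 303 CPM in Tet1CD cells and 32.7 to 246 CPM in Flag cells). The macrophage sum was higher in 5 of 6 pairs and the fibroblast sum in 1 of 6. The part of these markers in the members' changes was not tested.

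**Figure D4:**
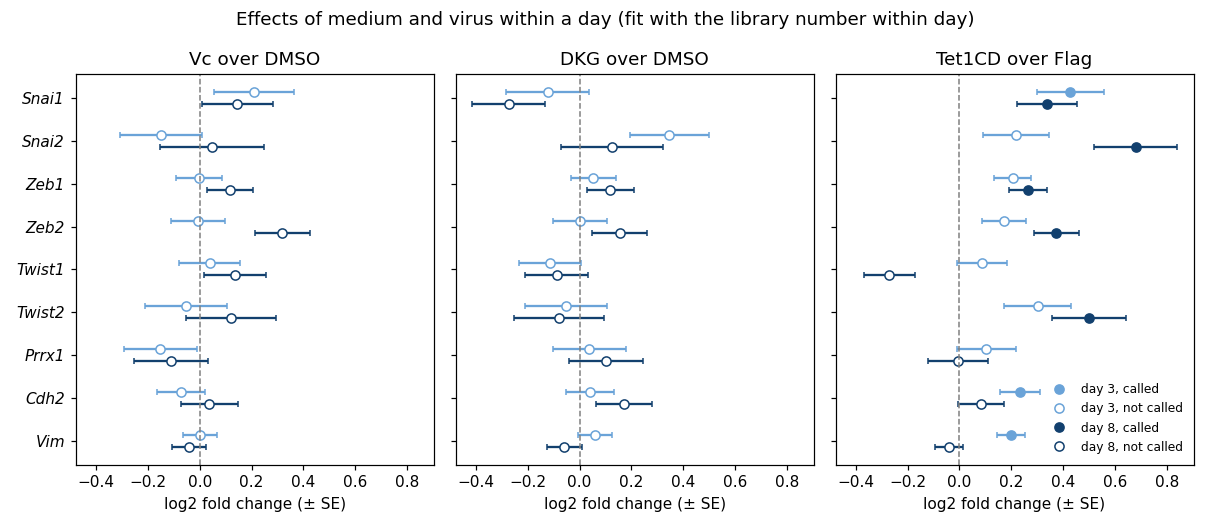
Log2 fold changes ± SE of Vc over DMSO, DKG over DMSO and Tet1CD over Flag at day 3 and day 8, from the fit with the library number within day; filled points passed an adjusted p of 0.05. Filled points appear only for Tet1CD over Flag, 3 at day 3 and 5 at day 8.

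Differences between effects were tested in 8 interactions, which makes 72 tests over the 9 members. None passed without the block, by edgeR's quasi-likelihood test or by DESeq2, and none had an unadjusted p under 0.05 in edgeR, where 0.052% of all gene tests passed over the 8. With the number within day 1 passed: the Tet1CD effect on Vim was lower at day 8 than at day 3, by -0.24 ± 0.077 (adjusted p = 0.0498, beside 11.9% of all genes). Without the library rich in macrophage markers its adjusted p was 0.0697, beside 13.2% of all genes. In single combinations with the number within day, Tet1CD over Flag was called in Vc medium at day 3 for Cdh2 (0.63 ± 0.13, adjusted p = 0.00322), Snai2 (0.84 ± 0.23), Zeb1 (0.45 ± 0.12) and Vim (0.35 ± 0.094), beside 16.6% of all genes. At day 8 it was called in Vc for Twist2 (0.90 ± 0.24) and for Zeb2 (0.66 ± 0.15, adjusted p = 0.00701), which had an adjusted p of 0.132 without the macrophage-rich library. Of all genes, 12.6% were called there with that library and 6.42% without it. No member was called for Tet1CD over Flag in DMSO (0.535% of all genes at day 3, 4.46% at day 8) or DKG (0.471% and 2.47%) alone, but the interactions with the medium did not pass, so a difference between media is not shown.

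ESC had less of all 9 members than MEF, but the 2 ESC libraries were far apart. Vim had 1307 and 150 CPM in ESC 0822 and 0819, against 4751 and 5158 CPM in MEF (-2.77 ± 0.57, adjusted p = 0.000722). Zeb1 had 46.7 and 7.39 CPM in ESC, against 116 and 119 CPM in MEF (-2.12 ± 0.46, adjusted p = 0.00108). Snai1 had 32.2 and 14.4 CPM in ESC, against 84.2 and 72.7 CPM in MEF (-1.75 ± 0.70, adjusted p = 0.0425). The library 0822, which had the fibroblast markers, was the higher for every member. Snai2 had 23.8 and 1.56 CPM in ESC, Zeb2 44.5 and 0.194, Twist1 26.6 and 0.583, Twist2 39.1 and 0.194, and Prrx1 203 and 1.36. In ESC 0819 the levels of Zeb2, Twist1 and Twist2 rest on 1, 3 and 1 counts. Cdh2 had 68.4 and 11.5 CPM in ESC, against 228 and 204 CPM in MEF (-2.43 ± 0.60, adjusted p = 0.00275).

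All 9 members were called lower in ESC, beside 52.4% of all genes in either direction and 25.7% lower, and all lay below both MEF libraries, as did 38.7% of all genes. Without ESC 0822 all 9 passed, with changes such as -5.06 for Vim, -4.24 for Cdh2, -4.00 for Zeb1 and -2.46 for Snai1. Without ESC 0819 the changes were smaller, -1.92 for Vim and -1.66 for Cdh2, and Snai1 and Snai2 lost their calls (adjusted p = 0.247 and 0.076). In an edgeR fit of only the 4 MEF and ESC libraries no member was called (adjusted p between 0.0643 and 0.339), 2 of the 9 had an unadjusted p under 0.05, and DESeq2 over the 28 libraries called all 9. Without MEF 0824 Snai1, Twist2 and Prrx1 lost their calls, and without MEF 0826 Snai1 and Twist2 did.

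Epithelial genes, which the Snai, Zeb and Twist factors are known to repress, were mostly higher at day 8 than at day 3. The lists below were chosen with results of these data known. Their counts stand beside 28.7% of all genes called at day 3 over MEF (13.9% lower) and 25.1% between the days (14.4% higher and 10.7% lower). Of 22 epithelial genes (junction, keratin and polarity genes), 18 were called higher at day 8 than at day 3 and none lower, with a median log2 change of 2.62 against 0.01 over all genes. Epcam, an epithelial adhesion protein, had a lowest, median and highest level of 19.0, 45.3 and 87.9 CPM in day 8 libraries, against 0.817, 3.73 and 6.72 CPM in day 3 libraries (3.87 ± 0.36, adjusted p = 1.89e-06). These groups did not overlap. Cdh1, or E-cadherin, had 0 and 0.406 CPM in MEF, a lowest, median and highest level of 4.09, 9.87 and 13.99 CPM at day 3 and of 10.3, 33.7 and 89.5 CPM at day 8, and 462 and 1385 CPM in ESC 0822 and 0819. Among 11 antagonists of EMT that passed the filter on low counts, of 14 listed, 10 were called higher at day 8 than at day 3 and none lower. Esrp1, an epithelial splicing factor, had 2.13 to 19.2 CPM at day 8 and at most 0.624 at day 3. Day 3 medians were 0 CPM for Esrp1 and for the antagonist Grhl2, and 0.216 CPM for Cldn4 among the 22 epithelial genes. Such genes passed the filter only through groups where they were higher, and they could hardly be called lower at day 8. The direction of the calls in both lists was therefore partly set by the filter. Against MEF, 4 of the 22 epithelial genes were called higher and 2 lower at day 3. Cdh3, or P-cadherin, was 1 of those called lower (-6.26 ± 0.85, adjusted p = 6.22e-05). Keratinocyte markers moved the same way, with sums over 11 genes of 79.4 to 418 CPM at day 8 and 19.9 to 75.4 CPM at day 3, and their part in these changes was not tested.

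**Figure D5:**
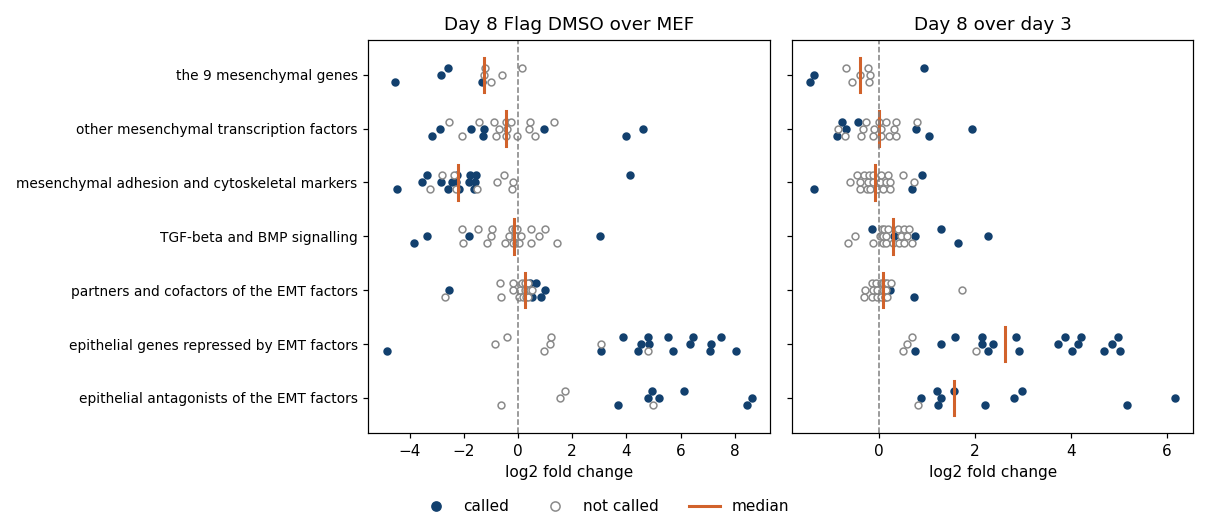
Log2 fold changes of day 8 Flag DMSO over MEF (left) and of day 8 over day 3 (right) for the 9 genes and 6 related lists; each point is a gene, filled where called, and orange bars are medians. The bars of the epithelial lists are left out against MEF, where many of their genes had 3 or fewer counts and fitted values depend on the prior count. In the right panel the epithelial genes lie to the right, with a median of 2.62, and the mesenchymal adhesion genes near 0.

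Mesenchymal adhesion and cytoskeletal genes fell early, and few were called between the days. Of 24, 15 were called lower and 1 higher in day 3 Flag DMSO cells than in MEF (median -2.14, beside 13.9% of all genes called lower), and 1 lower and 2 higher at day 8 than at day 3 (median -0.08). Fn1, or fibronectin, had a median of 2166 CPM over the 12 day 3 libraries, against 17764 and 22987 CPM in MEF (-3.18 ± 0.50 in Flag DMSO cells, adjusted p = 0.000241). Itga5, its receptor subunit, changed by -3.14 ± 0.47 (adjusted p = 0.000161) at day 3, and rose by 0.68 ± 0.18 between day 3 and day 8 (adjusted p = 0.0106). Nt5e, the surface enzyme CD73, rose at day 3 over MEF (3.39 ± 0.72, adjusted p = 0.00231). S100a4, a calcium-binding protein of fibroblasts, was lower at day 8 than at day 3 (-1.35 ± 0.36, adjusted p = 0.0112).

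Of the other transcription factors of mesenchyme, at day 3, 5 of 23 tested were called lower than in MEF and 2 higher, with a median of -0.99, a share near the 28.7% of all genes called. Sox4, a target of TGF-beta, fell (-1.51 ± 0.29, adjusted p = 0.00102), and so did Mrtfa, a coactivator of serum response factor (-1.04 ± 0.23, adjusted p = 0.00273). The homeobox gene Meox2 (5.45 ± 0.81, adjusted p = 0.000134) and the forkhead gene Foxd1 (3.20 ± 0.87, adjusted p = 0.0109) rose. Between day 8 and day 3, 3 were called higher and 4 lower of 23, near the 25.1% of all genes called. Runx1 (1.05 ± 0.28, adjusted p = 0.00983) and Sox9 (1.94 ± 0.53, adjusted p = 0.0133) rose, and Hmga2, a chromatin protein upstream of Snai1 and Twist1 in cultured cells, fell (-0.77 ± 0.25, adjusted p = 0.031).

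TGF-beta, the best known inducer of EMT, acts through Smad proteins. Of 26 genes of the TGF-beta and BMP pathways, 7 were called lower and none higher in day 3 Flag DMSO cells than in MEF (median -0.70). Of all genes, 28.7% were called in either direction and 13.9% were called lower. The TGF-beta target Ccn2 was among the 7 pathway genes (-2.50 ± 0.48, adjusted p = 0.00113). At day 8, 5 were called higher and 1 lower than at day 3 (median 0.30), near the 25.1% of all genes called. The ligand Bmp2 rose by 2.27 ± 0.32 (adjusted p = 7.79e-05), and Skil, a Smad repressor, by 0.76 ± 0.21 (adjusted p = 0.0131). Among 23 partners and cofactors of the EMT factors, 4 were called higher and 1 lower at day 3 than in MEF, a share under the 28.7% of all genes called. Prmt5, an arginine methyltransferase (1.10 ± 0.17, adjusted p = 0.000176), and the deacetylase gene Hdac2 (0.77 ± 0.20, adjusted p = 0.00712) were higher. Loxl2, a lysyl oxidase that binds Snai1, was lower (-3.67 ± 0.67, adjusted p = 0.000776).

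Over the 14 group means, the genes most like each member in log2(CPM + 1) had Pearson correlations between 0.967 and 0.996. The nearest were Csf1 for Snai1 (0.977), Fam198b for Snai2 (0.976), Prkar1a for Zeb1 (0.974) and Sorbs2 for Zeb2 (0.973). They were Ppp1r9b for Twist1 (0.989), Lamp1 for Twist2 (0.983), Yaf2 for Prrx1 (0.986), Pard6g for Cdh2 (0.981) and Clptm1l for Vim (0.996). These values describe the same libraries, which share their gap between MEF, reprogramming cells and ESC.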

How the data were processed

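Per the labels' protocols, a TruSeq kit was used on 1 ug of Trizol-extracted total RNA. The submitters' processing notes name Bowtie, RSEM and mm10; the versions and the annotation were not given in the sources used here. The deposited tables hold, per the file headers, RSEM's expected count, TPM and FPKM for each gene. Reads matching more than 1 gene are divided by RSEM's model, no counting strand is stated, and reads of introduced and endogenous Pou5f1 or Tet1 cannot be told apart. The deposited FPKM was not used, and the deposited TPM served only to set levels of different genes side by side. The deposited expected counts, summing to 3953297 to 6818060 per library, were rounded to whole numbers for tests. Of 29267 gene identifiers 28756 matched GENCODE mouse release 21, which gave symbols and positions (1-based), and the other 511 held at most 0.392% of a library. Limits of 3 counts (95%) cover counting error only.

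The members and the gene lists were chosen with earlier results of these data known. Named genes of a list were at most the 2 called genes of lowest adjusted p in each direction, and for likeness the 3 genes of highest Pearson correlation over 14 group means, of which the text names the first. 1 gene that this rule names is not reported here. The main test was edgeR's two-sided quasi-likelihood test (edgeR 4.0.16, limma 3.58.1, R 4.3.3) on 28 libraries of 14 groups, with TMM scaling, filterByExpr (14914 genes), no block and Benjamini-Hochberg adjustment within each comparison over all genes; a call is an adjusted p under 0.05. Log2 changes are given ± SE, the size of the change over the square root of F. CPM use TMM-scaled totals. The comparison of day 8 Flag DMSO cells with MEF, the fits within a number, the fit without ESC and the fit without the library rich in macrophage markers were chosen after seeing the data. The test without a block was checked on simulated counts with known changes, the same dispersion for every gene and no gap between the numbers. That check does not cover the fits with a block.

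Whether equal numbers pair libraries was checked by correlating across genes the deviations from the group means. Within a day the correlations were 0.388 to 0.580 at day 3 and 0.379 to 0.749 at day 8 (15 pairs of groups each), so the number pairs libraries there and serves as a block within a day in a fit of the 24 reprogramming libraries. Across days they were -0.013 to 0.193 (36 pairs), and with MEF 0.066 to 0.182 at day 3 and -0.011 to 0.331 at day 8 (6 pairs each), so it does not. Alternatives were this block, 1 block over 26 libraries, RLE scaling, no filter, DESeq2 1.42.0, only the groups compared, and each library left out in turn. ESC 0822 and ESC 0819 are named by title (passages 17 and 19), while the deposited file of each bears the number of the other, so which is of which passage is uncertain.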

Additional observations from a re-analysis of the deposited data

Results flagged for a closer look

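The change between day 8 and day 3 differed between the libraries numbered 0826 and those numbered 0824 for 6 of the 9 members, by the test of that difference in a fit with the number within day. The difference, 0826 minus 0824 on the log2 scale, was 1.28 for Snai1, 0.54 for Twist2, -0.50 for Cdh2, -0.83 for Prrx1, -0.63 for Zeb2 and -0.19 for Vim. It passed for 45.6% of all genes tested. The combinations of virus and medium stood in as replicates in that test, so its p-values do not measure how far the gap would repeat. Snai1 was the member with the widest gap: the 6 day 8 libraries numbered 0826 had 40.3 to 64.8 CPM and the 6 numbered 0824 had 12.8 to 23.8 CPM. At day 8 the numbers differed in 57.2% of all genes and at day 3 in 35.2%.

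The 3 single libraries of MEF kept 3 days, which enter no comparison, lay above both untreated MEF libraries for 3 members, as did 12.8% of all genes. The lowest of the 3 had 92.6 CPM of Snai1, against 84.2 and 72.7 CPM in untreated MEF. For Twist1 the lowest was 70.1 CPM, against 65.3 and 55.9 CPM, and for Twist2 it was 129 CPM, against 113 and 78.8 CPM. With 1 library of each medium this was not tested.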

How the results depend on the processing

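With the numbers 0824 and 0826 as 1 replicate block over the 26 MEF and reprogramming libraries, 7 members were called in day 3 Flag DMSO cells over MEF (6599 genes), 8 in day 8 Flag DMSO cells over MEF and 8 at day 8 over day 3 (5760 genes). That block called 0 members and 89 genes for Vc at day 3, 0 and 195 for Vc at day 8, 0 and 577 for Tet1CD at day 3, 1 and 989 for Tet1CD at day 8, and 11 of 180 single combinations. The numbers were not paired across days, so these counts are given only here. With the block within a day, 9 members and 7772 genes were called at day 8 over day 3, 3 and 2291 for Tet1CD at day 3, 5 and 3217 for Tet1CD at day 8, 422 genes for Vc at day 3, 1235 for Vc at day 8, 36 single combinations and 1 interaction. Without the macrophage-rich library, an alternative chosen after seeing the data, these were 9 and 7744 for the days, 4 and 3273 for Tet1CD at day 8, and 799 genes for Vc at day 8. The counts between the days from the block within a day leave out the gap between the numbers, so they are too high for a day change. With either block no member was called for Vc or DKG averaged over the viruses.

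With ESC left out of the fit (chosen after seeing the data), 5 members were called at day 3 over MEF and 6 at day 8 over day 3. Genes called were then 53 for Vc at day 8, 178 for Tet1CD at day 3 and 451 at day 8. With only the libraries of the groups compared, 0 members and 2031 genes were called for ESC over MEF, 6 members at day 3 over MEF, 6 at day 8 over day 3, and 11, 9 and 253 genes for Vc at day 3, Vc at day 8 and Tet1CD at day 3. DESeq2 called 4 members at day 3 over MEF, 56 genes for Vc at day 3, 96 for Vc at day 8, 207 for Tet1CD at day 3 and 469 at day 8. Without the filter on low counts 30 genes were called for Vc at day 3 and 61 at day 8. Within the libraries numbered 0824, 5 members were called between the days, and within 0826 7 members and 7039 genes.

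The signs that turned belong to changes that were not called in the fit without a block. Zeb2 between the days was 0.11 within 0824. Vim with Vc at day 3 was 0.0012 with the within-day block, 0.0067 with RLE scaling and with DESeq2, and 0.0028 with only the groups compared. Zeb2 with DKG at day 3 was 0.0027 with the within-day block. Without the macrophage-rich library Prrx1, Cdh2 and Vim with Vc at day 8 were 0.12, -0.017 and 0.031, and Prrx1 and Vim with Tet1CD at day 8 were 0.15 and 0.0075. RLE in place of TMM moved every member at day 3 over MEF by -0.057 or -0.058.

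Leaving out 1 library at a time, members called ranged from 6 to 9 for ESC over MEF, 0 to 1 for day 3 over MEF, 1 to 3 for day 8 over MEF and 2 to 3 for day 8 over day 3. Genes called ranged from 5720 to 8866, 1777 to 2930, 2353 to 3341 and 3014 to 3896 in these comparisons, from 11 to 26 for Vc at day 3, 14 to 61 for Vc at day 8, 44 to 96 for Tet1CD at day 3 and 139 to 256 for Tet1CD at day 8. The log2 changes whose sign turned ranged as follows. For day 8 over MEF it was -0.10 to 0.36 for Twist1. With Vc at day 3 they were -0.51 to 0.17 for Snai2, -0.072 to 0.068 for Zeb1, -0.16 to 0.13 for Zeb2, -0.029 to 0.11 for Twist1, -0.21 to 0.10 for Twist2, -0.39 to 0.19 for Cdh2 and -0.18 to 0.14 for Vim. With Vc at day 8 they were -0.38 to 0.78 for Snai1, -0.15 to 0.22 for Snai2, -0.078 to 0.27 for Zeb1, -0.19 to 0.39 for Twist2, -0.38 to 0.17 for Prrx1, -0.11 to 0.18 for Cdh2 and -0.18 to 0.061 for Vim. With DKG at day 3 they were -0.24 to 0.0078 for Snai1, -0.015 to 0.12 for Zeb1, -0.14 to 0.16 for Zeb2, -0.20 to 0.11 for Twist2, -0.11 to 0.17 for Prrx1, -0.25 to 0.33 for Cdh2 and -0.049 to 0.17 for Vim. With DKG at day 8 they were -0.80 to 0.34 for Snai1, -0.16 to 0.40 for Snai2, -0.25 to 0.032 for Twist1, -0.22 to 0.062 for Twist2, -0.14 to 0.41 for Prrx1, -0.0093 to 0.34 for Cdh2 and -0.13 to 0.00078 for Vim. With Tet1CD at day 3 they were -0.015 to 0.42 for Snai2 and -0.017 to 0.18 for Prrx1. With Tet1CD at day 8 they were -0.052 to 0.67 for Snai1, -0.20 to 0.17 for Prrx1, -0.042 to 0.19 for Cdh2 and -0.13 to 0.035 for Vim. The causes of these movements were not tested, beyond that fewer libraries enter such a fit.

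With 2 libraries a group, all calls rest on a spread shared by 14 groups, and where a MEF or ESC library is left out, the lone library is assumed to vary like the other groups. Zeb2, Twist1 and Twist2 in ESC 0819 rest on 1 to 3 counts, so their folds over MEF are uncertain. Of the log2 changes of single members under the settings other than leaving out 1 library, 543 kept their direction and side of the threshold, 66 newly passed it, 10 lost it and 11 turned their sign.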
